A study of Mus musculus with 5 samples.

Results

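Trp53 and 9 genes that p53 is known to switch on were followed through RNA-seq of HT22 cells in which the long non-coding RNA Gas5 had been targeted by siRNA. The 10 genes (Trp53, Mdm2, Ccng1, Bax, Bbc3, Pmaip1, Sesn2, Zmat3, Phlda3 and Gdf15) were a named list, matched by symbol and Ensembl identifier, out of 55487 genes in the count table. All 10 were found, 9 had enough reads to be tested, and Pmaip1 had no read in any library. None of the 9 passed the test for a difference between knock-down (KD) and control cells, the comparison that asks which genes respond to less Gas5. By edgeR at an adjusted *P* of 0.05, 0 of all 15867 genes tested passed, Gas5 included. The result is therefore not particular to the p53 genes.

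HT22 is a mouse line of hippocampal origin that grows as dividing cells. Its parent line was immortalised with the large T antigen of SV40, a viral protein that binds p53, and this limits how far the line stands for p53 signalling in a neuron. All cells received siRNA at 10 nM for 48 h with the transfection reagent INTERFERin, and the agent was either a negative control (NC) siRNA, Gas5 siRNA210 or Gas5 siRNA596. The labels list the NC samples as untreated, although their titles and the transfection protocol name an NC siRNA. There were 2 NC libraries, 1 library of siRNA210 and 2 of siRNA596. The labels do not say that replicates came from separate cultures, so a *P*-value measures only the spread between these libraries, which may be technical.

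Each library held 30660265 to 36492134 counts over genes. The library labelled siRNA596 replicate 2 stood apart from the other 4: the chi-square statistic per gene was 538 to 564 against any of them and 5.48 to 43.1 among them. Gas5, the targeted gene, was at 90.4 CPM (counts scaled to library size) in NC replicate 1, 76.0 in NC replicate 2, 59.7 in siRNA210 and 65.9 in siRNA596 replicate 1. The library labelled siRNA596 replicate 2 had 179 CPM, against its label. KD below is siRNA210 and siRNA596 replicate 1, and values with all 5 libraries are given beside it. On the 4 libraries Gas5 was at 75.4% of NC (95% confidence interval 63.9 to 89.0, edgeR quasi-likelihood test, adjusted *P* = 0.967 over all genes), past an unadjusted 0.05 but not an adjusted one. Since the remaining library was set apart partly for its Gas5 level, this value is a description of the 4 libraries and no independent check of the knock-down. With all 5 libraries Gas5 was at 122% (49.6 to 300.4). NC replicate 2 also differed from the other 3 similar libraries, with a chi-square per gene of 31.7 to 43.1 against 5.48 to 9.02 among those 3. Of 9 neuronal markers 4 exceeded 1 CPM in some library (Map2, Tubb3, Slc17a7 and Camk2a), and Snap25 was at 0 in all 5. The summed CPM of the 9 was 99.4 to 105.9 in NC, 98.6 to 105.5 in KD and 53.7 in the library labelled siRNA596 replicate 2. Most of this sum came from Map2 and Tubb3, while Rbfox3, Syt1, Grin1 and Gad1 had no more than 8 counts in any library. In bulk RNA, fewer cells of a type and less RNA per cell cannot be told apart.

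p53, the product of Trp53, is a transcription factor that is kept low by the ubiquitin ligase MDM2 and accumulates when DNA damage, nucleolar stress or an oncogene interrupts that control. Its targets fall into arms: feedback on p53 itself, arrest and repair, metabolic restraint, and death through the mitochondrion. Because Mdm2 is itself a target, a rise in active p53 normally shows in Mdm2, while the level of Trp53 mRNA changes little, since p53 is controlled mainly as a protein.

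What the targets share is a p53 response element, a pair of 10-base units placed back to back or with up to 13 bases between them. RefSeq promoter sequences (GRCm38.p6, 250 bases before to 50 after the transcript start) were at hand for 8 of the 10 genes, the exceptions being Pmaip1 and Zmat3. Both strands need no separate search, since the motif is its own reverse complement. The best match in each window was scored by its mismatches to the p53 consensus, with the C and G at the core of each unit required. The 3 targets with the closest matches are printed in the direction of transcription, with the 10-base units in capitals.

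Ccng1: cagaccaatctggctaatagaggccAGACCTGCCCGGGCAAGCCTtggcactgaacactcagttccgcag

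Bax: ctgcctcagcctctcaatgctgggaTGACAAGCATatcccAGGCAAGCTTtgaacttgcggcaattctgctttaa

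Bbc3: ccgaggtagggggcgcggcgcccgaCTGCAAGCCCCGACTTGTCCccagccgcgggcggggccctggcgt

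The Ccng1 stretch lies at chr11:40755437-40755506 on the minus strand, and its element, 195 to 176 bases upstream of the start, had 1 mismatch. The Bax stretch, chr7:45467065-45467139 on the minus strand, had 2 mismatches and a spacer of 5 bases, 216 to 192 bases upstream. The Bbc3 stretch, chr7:16309461-16309530 on the plus strand, had 3 mismatches 97 to 78 bases upstream of its RefSeq start, between the first exons of alternative transcripts. Bbc3 has 3 windows, and another of them also held a match with 3 mismatches, with a spacer of 2 bases. The shares that follow are per window, so a gene with several windows has more occasions for a match. Of all 32851 promoter windows, 0.627% held a match with at most 1 mismatch, 4.09% with at most 2 and 15.6% with at most 3. The best match had 3 mismatches in Trp53, 4 in Mdm2 and Gdf15, 5 in Phlda3 and 6 in Sesn2. Of Mdm2 and other targets whose known elements lie within introns, these windows say nothing. A match is a description of the letters and no measure of binding.

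Levels were compared between the genes as RPKM, which divides CPM by exonic length in kilobases, averaged over the 4 similar libraries. Trp53 itself was the most abundant of the 10, with a level of 60.1 RPKM ± 1.10 (SD, n = 4), at percentile 95.3 of the genes tested, whose median was 4.85 RPKM. Phlda3 followed at 45.7 RPKM ± 1.93 and Bax at 27.2 RPKM ± 1.60, and neither overlapped its neighbours in the order. Ccng1 (16.2 RPKM ± 0.809) and Mdm2 (16.2 RPKM ± 1.23) overlapped and could not be ordered. Sesn2 was at 10.4 RPKM ± 0.969. Gdf15 (7.09 RPKM ± 2.09) and Bbc3 (5.98 RPKM ± 0.384) overlapped, because Gdf15 ranged from 4.01 to 8.64 between libraries. Zmat3 was at 3.73 RPKM ± 0.287 over an exonic length of 11435 bases, the longest of the 10. HT22 cells thus held transcripts of p53 and of 8 of the 9 listed targets under control siRNA.

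**Figure D1:**
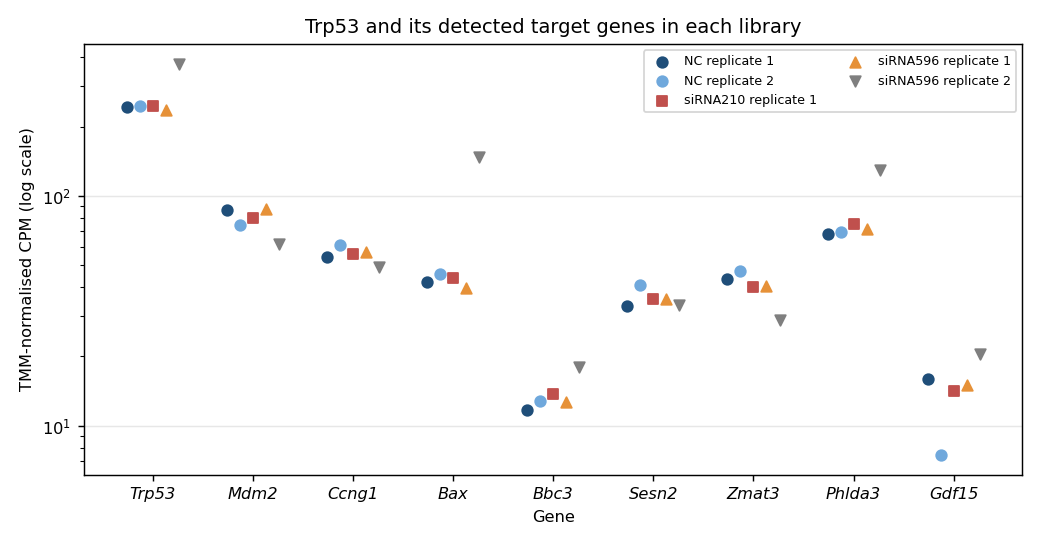
TMM-normalised CPM (y axis, log scale) of the 9 detected genes in each of the 5 libraries, 1 point per library; Pmaip1 is at 0 in all and is not drawn. In most genes the 4 similar libraries lie close together, Gdf15 is low in NC replicate 2 (7.43 CPM), and the library labelled siRNA596 replicate 2 is high for Bax (147 CPM).

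Trp53 (ENSMUSG00000059552, chr11:69580359-69591873, plus strand, GRCm38) varied least of the 9 genes over the 4 similar libraries, though not over all 5. It was at 244.4 CPM in NC replicate 1, 244.6 in NC replicate 2, 246.5 in siRNA210 and 236.4 in siRNA596 replicate 1. The library labelled siRNA596 replicate 2 had 375.8 CPM. The 4 similar libraries overlapped between the groups, and the remaining library lay above them. On the 4 libraries KD was at 98.6% of NC (95% interval 87.4 to 111.3), a log2 fold change of -0.02 ± 0.08 (SE, adjusted *P* = 0.987). With all 5 libraries the log2 fold change was 0.23 ± 0.28 (SE, adjusted *P* = 0.963). A pseudogene, Trp53-ps, shares 50-base stretches with Trp53, and 3.95% of the windows of Trp53 recur in other genes. Trp53-ps had 92 to 180 counts, which is 0.927% to 2.09% of those of Trp53.

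Mdm2 (ENSMUSG00000020184, chr10:117688875-117710758, minus strand), the target that closes the feedback loop, did not separate the groups either. Its level was 86.6 CPM in NC replicate 1, 74.3 in NC replicate 2, 80.1 in siRNA210 and 87.7 in siRNA596 replicate 1, with 61.5 for the library labelled siRNA596 replicate 2. KD was at 104.2% of NC (89.1 to 121.8, adjusted *P* = 0.977) on 4 libraries and at 95.0% (63.0 to 143.3) on all 5. The NC libraries were thus on either side of siRNA210.

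The arm of arrest, damping and repair is represented by Ccng1, Phlda3, Zmat3, Sesn2 and Gdf15. Ccng1 (ENSMUSG00000020326, chr11:40748552-40755311, minus strand) encodes cyclin G, which recruits a phosphatase to MDM2. It was at 54.2 and 60.9 CPM in NC replicates 1 and 2, 55.9 in siRNA210 and 57.1 in siRNA596 replicate 1, with 49.2 for the library labelled siRNA596 replicate 2. Both KD values lay between the NC values, and KD was at 98.0% of NC (84.3 to 114.0, adjusted *P* = 0.983) on 4 libraries and at 93.9% (66.3 to 133.0) on 5.

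Phlda3 (ENSMUSG00000041801, chr1:135766119-135769136, plus strand) encodes a pleckstrin-homology protein that restrains Akt at the membrane. Its levels were 68.3 and 69.6 CPM in NC replicates 1 and 2, 75.2 in siRNA210 and 71.9 in siRNA596 replicate 1, with 129 for the library labelled siRNA596 replicate 2. Every KD library was above both NC libraries, with 4 libraries and with 5. The distance was small: KD was at 106.5% of NC (93.4 to 121.4, adjusted *P* = 0.967) on 4 libraries, with a log2 fold change of 0.09 ± 0.08 (SE), and 0.42 ± 0.32 on 5.

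Zmat3 (ENSMUSG00000027663, chr3:32334792-32366014, minus strand) encodes a zinc finger protein that binds RNA and regulates splicing. It was the mirror of Phlda3, with 43.3 and 47.1 CPM in NC replicates 1 and 2, 39.9 in siRNA210 and 40.4 in siRNA596 replicate 1, with 28.8 for the library labelled siRNA596 replicate 2. Every KD library was below both NC libraries. KD was at 88.8% of NC (76.0 to 103.8, adjusted *P* = 0.967), and the log2 fold change was -0.17 ± 0.10 (SE) on 4 libraries and -0.31 ± 0.24 on 5.

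These 2 were the genes of the list whose groups did not overlap, 1 in each direction. Over all genes tested on 4 libraries, 16.7% were higher in both KD libraries than in both NC libraries and 16.2% were lower. With all 5 libraries the shares were 8.3% higher and 9.48% lower. With 1 of 9 in each direction the list was near this background.

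Sesn2 (ENSMUSG00000028893, chr4:132492032-132510501, minus strand) encodes sestrin 2, which restrains mTORC1 and is also a target of the stress factor ATF4. Its levels were 33.2 and 41.1 CPM in NC replicates 1 and 2, 35.4 in siRNA210 and 35.4 in siRNA596 replicate 1, with 33.3 for the library labelled siRNA596 replicate 2, all 3 Gas5 siRNA libraries between the NC values. KD was at 95.2% of NC (78.5 to 115.4, adjusted *P* = 0.977) on 4 libraries and at 93.5% (65.4 to 133.7) on 5.

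Gdf15 (ENSMUSG00000038508, chr8:70629393-70632456, minus strand) encodes a secreted stress cytokine. It varied most within a group, with 16.01 CPM in NC replicate 1 and 7.43 in NC replicate 2, and with 14.1 in siRNA210 and 14.95 in siRNA596 replicate 1, with 20.6 for the library labelled siRNA596 replicate 2. NC replicate 2 was at 46.4% of NC replicate 1, and the 2 KD libraries lay just under NC replicate 1. On 4 libraries KD was at 124.2% of NC (78.9 to 195.4), a log2 fold change of 0.31 ± 0.29 (SE, adjusted *P* = 0.967). NC replicate 2 set the sign: without it the log2 fold change was -0.14, and without NC replicate 1 it was 0.97. On all 5 libraries it was 0.50 ± 0.40.

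The death arm is represented by Bax, Bbc3 and Pmaip1. Bax (ENSMUSG00000003873, chr7:45461697-45466898, minus strand) encodes the pore-forming protein of the outer mitochondrial membrane. It was at 42.3 and 45.7 CPM in NC replicates 1 and 2, 43.9 in siRNA210 and 39.8 in siRNA596 replicate 1. The library labelled siRNA596 replicate 2 had 147 CPM. The 4 similar libraries overlapped between the groups. KD was at 95.0% of NC on them (80.7 to 111.9, adjusted *P* = 0.976), a log2 fold change of -0.07 ± 0.10 (SE). With all 5 libraries it was 0.81 ± 0.63 (SE, adjusted *P* = 0.963), the opposite sign. Of the 50-base windows of Bax 8.51% recur in the overlapping gene model Gm45808, which had no counts.

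Bbc3 (ENSMUSG00000002083, chr7:16308393-16318205, plus strand) encodes PUMA, which frees Bax by binding the survival proteins of the BCL2 family. Its levels were 11.7 and 12.8 CPM in NC replicates 1 and 2, 13.7 in siRNA210 and 12.6 in siRNA596 replicate 1, with 18.0 for the library labelled siRNA596 replicate 2. KD was at 107.0% of NC (85.0 to 134.7, adjusted *P* = 0.977) on 4 libraries and at 120.2% (77.4 to 186.7) on 5.

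Pmaip1 (ENSMUSG00000024521, on chromosome 18) encodes NOXA, which antagonises the survival protein MCL1. It had 0 counts in each of the 5 libraries. A count of 0 allows up to 3 counts, which is 0.0822 to 0.0979 CPM per library and 0.0176 CPM over the 5 together, so a difference in Pmaip1 was not detectable at this depth. These limits for a count of 0 cover counting error only, while the intervals of KD against NC come from the edgeR fit and include the spread between libraries.

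**Figure D2:**
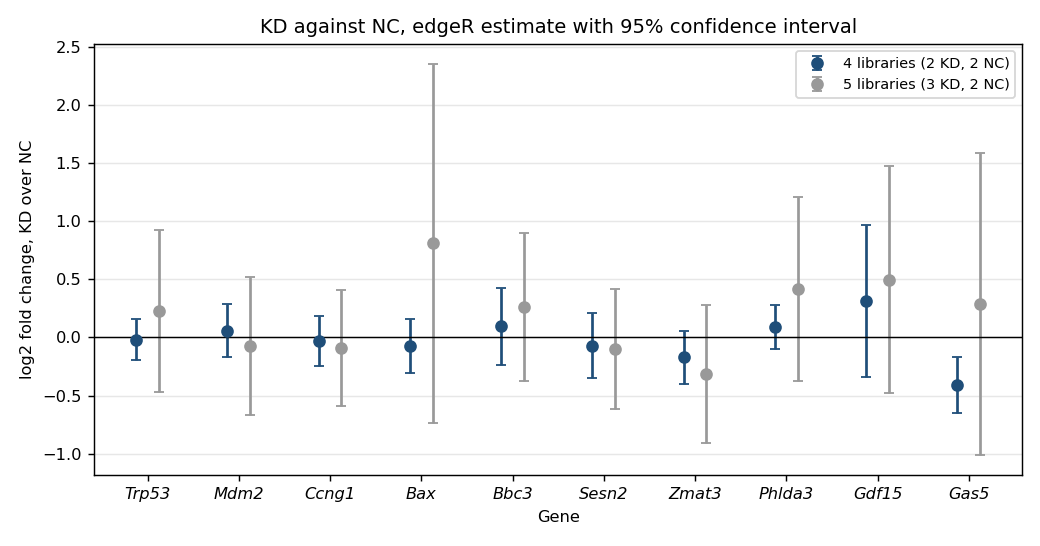
log2 fold change of KD over NC (y axis) for the 9 tested genes and Gas5, with 95% confidence intervals, from edgeR on 4 libraries (blue) and on all 5 (grey). All 9 intervals of the p53 genes include 0 in both fits, the interval of Gas5 excludes 0 on 4 libraries only, and the grey intervals are wider, most of all for Bax.

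By edgeR's quasi-likelihood test with Benjamini-Hochberg adjustment, 0 of the 9 tested genes passed an adjusted *P* of 0.05, where 0% of all 15867 genes tested did. At an unadjusted *P* under 0.05 the list also had 0, against 523 genes or 3.3% of those tested on 4 libraries and 60 of 16142 or 0.372% on 5. DESeq2 on the 4 libraries called 1 gene after adjustment, which was not in the list, and 368 without it. The median log2 fold change of the 9 was -0.02, and that of all genes tested was -0.0023. On 4 libraries the intervals of Trp53, Mdm2, Ccng1, Bax, Sesn2, Zmat3 and Phlda3 lay between 76.0% and 121.8% of NC, while Bbc3 reached 134.7% and Gdf15 195.4%. With all 5 libraries they were wider, at 72.2% to 189.8% for Trp53, 77.1% to 231.4% for Phlda3 and 59.9% to 512.4% for Bax. These intervals rest on the spread between libraries, which may be technical, so they do not bound a response of the cells.

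NC replicate 2 carried more than Gdf15. Of the 10574 genes that averaged 5 CPM or more over the libraries, 57 or 0.539% were more than 2-fold lower in NC replicate 2 than in NC replicate 1, and Gdf15 was the 1 listed gene among them. NC replicate 2 was the lowest of the 4 similar libraries for 2 of the 9 genes, Mdm2 and Gdf15, against 34.3% of all genes tested, and the highest for 4 (Ccng1, Bax, Sesn2 and Zmat3), against 32.55%. Beside the listed genes, Gadd45a, a p53 target whose product links stress to growth arrest and which was chosen after its values were seen, was at 32.8 CPM in NC replicate 1, 12.5 in NC replicate 2, 31.0 in siRNA210 and 30.3 in siRNA596 replicate 1. Of 6 genes of the ATF4 pathway, which shares control of Sesn2 and Gdf15, 5 were lowest in NC replicate 2. Ddit3, the stress factor CHOP, was there at 59.4% of NC replicate 1, Trib3, a pseudokinase, at 59.0%, and Atf3, an early stress factor, at 38.6%, whereas Atf4 itself was at 94.1%. On 4 libraries none of the 6 passed an unadjusted *P* of 0.05 between KD and NC, with a median log2 fold change of 0.18. The part of this pathway in the Gdf15 values was not tested.

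**Figure D3:**
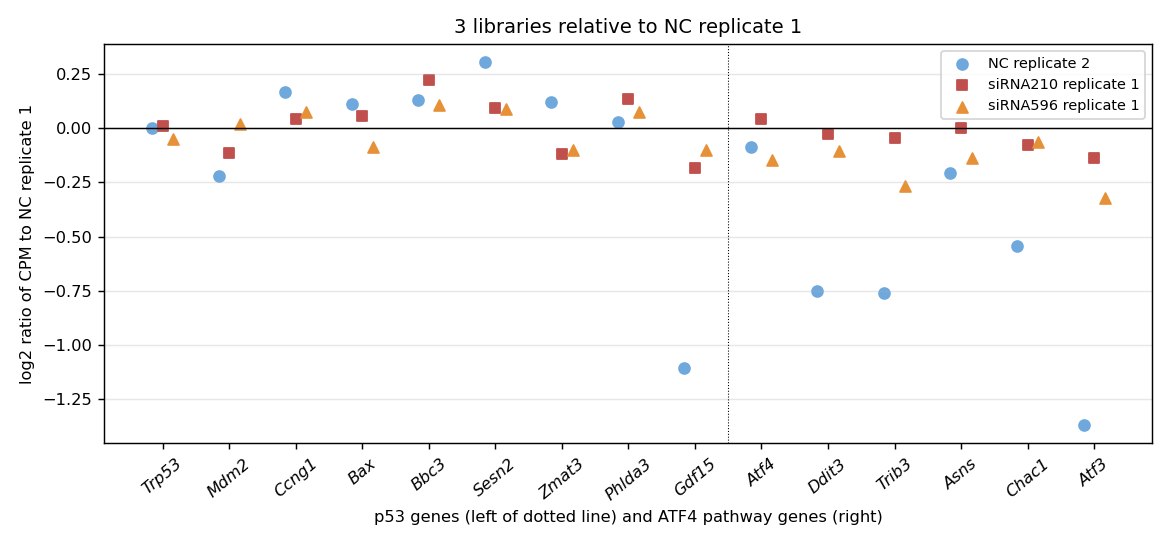
log2 ratio of CPM to NC replicate 1 (y axis) in NC replicate 2, siRNA210 and siRNA596 replicate 1, for the 9 detected p53 genes (left of the dotted line) and 6 ATF4 pathway genes (right). NC replicate 2 lies at -1.11 for Gdf15 and -1.37 for Atf3, far below both KD libraries, while Trp53 is at 0.00 in it.

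The wider pathway was read from 3 lists beside the ATF4 genes. Among 20 regulators of p53, 19 could be tested (Trp73 had too few reads), 0 passed an adjusted *P* of 0.05 and 1, Crebbp, passed an unadjusted 0.05, with a median log2 fold change of 0.02. Crebbp, the acetyltransferase CBP, was at 84.2 and 100.9 CPM in NC replicates 1 and 2, 75.2 in siRNA210 and 78.8 in siRNA596 replicate 1, a log2 fold change of -0.27 ± 0.10 (SE, adjusted *P* = 0.967) and -0.41 ± 0.25 with all 5 libraries. Atm, the kinase that signals DNA breaks to p53, and Cop1, a ubiquitin ligase for p53, came next without passing, at -0.29 ± 0.13 and -0.25 ± 0.12. Atm was at -0.81 ± 0.90 and Cop1 at 0.03 ± 0.31 with all 5 libraries.

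Among 40 other direct targets, all were tested, 2 were higher and 1 lower at an unadjusted *P* of 0.05, 0 passed adjustment, and the median was 0.05. Ddit4, an inhibitor of mTORC1, was at 228.8 and 183.9 CPM in NC replicates 1 and 2, 285.1 in siRNA210 and 235.5 in siRNA596 replicate 1, a log2 fold change of 0.33 ± 0.12 (SE). Aen, an exonuclease of apoptosis, went the other way with 21.1, 31.3, 19.9 and 18.5 CPM in the same order, -0.46 ± 0.18 (SE). The adjusted *P* was 0.967 for both. Over the 5 libraries Ddit4 was at -0.05 ± 0.53, the opposite sign, and Aen at -0.06 ± 0.39.

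Among 12 other genes of the BCL2 family, 10 were tested (Bik and Hrk had too few reads), 0 passed adjustment and 1 passed an unadjusted 0.05, with a median of -0.03. This was Bid, which carries the death receptor signal to Bax, at 34.2 and 48.5 CPM in NC replicates 1 and 2, 32.0 in siRNA210 and 31.4 in siRNA596 replicate 1, -0.39 ± 0.16 (SE, adjusted *P* = 0.967). Bmf (0.51 ± 0.25) and Bcl2l11, which encodes BIM (0.21 ± 0.11), both partners of the survival proteins, did not pass. On 5 libraries Bid was at -0.15 ± 0.31, Bmf at 0.13 ± 0.59 and Bcl2l11 at -0.07 ± 0.38.

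In all, 5 of 75 genes of the 4 lists passed the unadjusted threshold, beside the 3.3% of all genes. For Ddit4 NC replicate 2 was the lowest library of the 4, and for Crebbp, Aen and Bid it was the highest. Without NC replicate 2 the log2 fold changes of these 4 were smaller, at 0.19 for Ddit4, -0.13 for Crebbp, -0.14 for Aen and -0.11 for Bid. With all 5 libraries 0 of the 75 passed, beside 60 of all 16142 genes tested or 0.372%.

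The library labelled siRNA596 replicate 2 was compared with the mean of the other 4 as a description of 1 library, with no test. Of the 9 detected genes, 1 was more than 2-fold higher (Bax) and 0 were more than 2-fold lower. Among all 10574 genes averaging 5 CPM or more, 16% were higher and 16.4% lower by that much. The share of the list past 2-fold was thus not above that of all genes in either direction. Bax was 3.44-fold higher, at percentile 97.4 of those genes. Phlda3 was 1.81-fold, Gdf15 1.57-fold, Trp53 1.55-fold and Bbc3 1.41-fold as high as the mean of the other 4. Trp53 was at percentile 73.4 and Mdm2 at percentile 34.2 of all genes, within the bulk of this library's departures. Zmat3 was at 67.5%, Mdm2 at 74.8% and Ccng1 at 86.3%, each below all 4 other libraries, and Sesn2 was within their range.

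The departure went with gene length. Across genes, Spearman's rho between the log2 difference and exonic length was -0.638, a description over genes, which are not independent. Bax, Phlda3, Gdf15 and Bbc3 have 1576, 1559, 1852 and 2124 bases of exon, and Mdm2 and Zmat3 have 5083 and 11435. With the trend on length removed, the log2 difference fell from 1.78 to 0.89 for Bax, from 0.86 to -0.04 for Phlda3 and from 0.65 to -0.14 for Gdf15. It changed sign for Zmat3, from -0.57 to 0.31, and for Bbc3, from 0.50 to -0.20. Trp53 (0.63 to 0.56), Mdm2 (-0.42 to -0.27) and Ccng1 (-0.21 to -0.42) kept their sign, and 0 of the 9 remained past 2-fold, while 1716 of the 10574 genes did, against 3430 before. Whether length is the source of these differences was not tested.

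**Figure D4:**
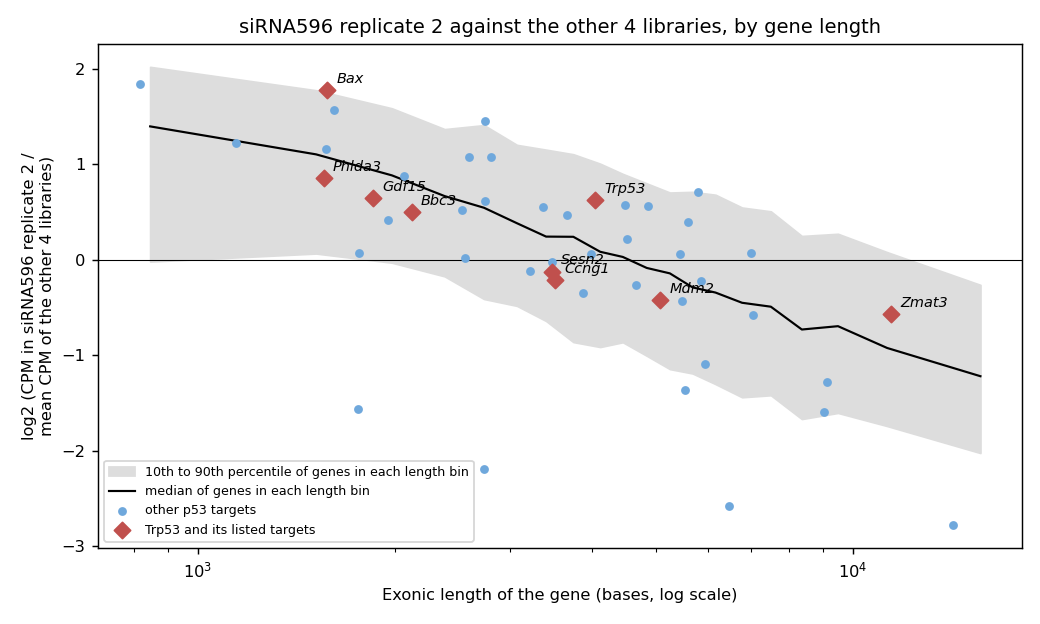
log2 ratio of CPM in the library labelled siRNA596 replicate 2 to the mean of the other 4 (y axis) against exonic length in bases (x axis, log scale). The line and band give the median and the 10th to 90th percentile of all genes in 20 length bins, diamonds the 9 detected p53 genes and dots other p53 targets; Bax lies at 1.78 near the upper edge of the band and Zmat3 at -0.57 above the line.

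The wider lists are read in the same library beside the 16% of all genes that were more than 2-fold higher and the 16.4% that were more than 2-fold lower. Of 18 regulators with enough reads, 2 were higher by that much and 6 lower, with a median log2 difference of -0.43. The 3 with the largest differences are named. Atm was at 7.61 CPM against 83.1 to 119.7 in the other 4, Hipk2, a kinase that phosphorylates p53, at 13.3 against 93.3 to 115.6, and Ep300, the acetyltransferase p300, at 52.1 against 170.1 to 217.5. With the trend on length removed, Atm and Hipk2 remained more than 2-fold lower and Ep300, at a log2 difference of -0.79, did not. The 18 regulators then had 3 higher and 2 lower. The 2 that were higher before, Rpl5 and Rpl11, went from 1.38 to 1.28 and from 1.71 to 1.23. Cop1 went from 0.59 to 1.82. Among other kinases and acetyltransferases of the list, Atr was also more than 2-fold lower, at 14.9 CPM against 46.0 to 51.8. Its log2 difference went from -1.71 to -0.26 with the trend on length removed. Nearer to the other libraries were Chek1 at 74.3%, Chek2 at 102.2%, Kat5 at 89.2% and Crebbp at 64.8% of their mean. Atr, these 4 genes, Rpl5, Rpl11 and Cop1 were chosen here after their values were seen. Of 38 other targets, 7 were higher and 8 lower, with a median of 0.07. The largest departures were in Notch1, a receptor, at 7.54 CPM against 45.1 to 57.4, Trp53inp1, a p53 cofactor, at 1.44 against 6.70 to 10.0, and Ddb2, a sensor of ultraviolet damage, at 1.55 against 5.90 to 8.27. These 3 remained more than 2-fold lower with the trend on length removed.

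Of 9 other BCL2 family genes, 3 were more than 2-fold higher and 0 lower. These were Bad, at 106 CPM against 35.3 to 38.0, Bok, at 87.3 against 33.2 to 42.4, and Bak1, which forms pores as Bax does, at 293.9 against 117.8 to 147.2. With the trend on length removed, an alternative added for these lists after seeing the data, the log2 difference fell to 0.99 for Bad, 0.47 for Bok and 0.61 for Bak1, and 0 of the 9 remained past 2-fold. Among the 6 ATF4 genes, Atf3 was more than 2-fold lower, Trib3 was at 33.6 CPM against 35.5 to 60.1, and Atf4 at 512.8 against 321.0 to 366.4. With the trend on length removed, the log2 difference went from -1.48 to -2.16 for Atf3, from -0.60 to -1.29 for Trib3 and from 0.58 to -0.04 for Atf4. Atf3, Trib3 and Chac1, 3 of the 6, were then more than 2-fold lower. The summed level of 3 proliferation markers (Mki67, Top2a and Pcna) was 1755 to 1873 CPM in the 4 similar libraries and 1354 in this one. Mki67 and Top2a were lowest in it, at 280.7 and 592.6 CPM, whereas Pcna was highest in it, at 481.1 CPM. The trend on length was not removed from these marker levels, nor from the neuronal sum given above. The part of these markers in the values of the list was not tested.

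The genes whose pattern over the 5 libraries was most like that of Trp53 were found by the root mean square difference of centred log2 CPM among 10573 genes. They were Ik (0.0122), Calm2 (0.0150), Hmgb2 (0.0161), Szrd1 (0.0174) and Bub3 (0.0208), against a median difference of 0.345. None is in the p53 lists. Ik, a splicing factor, was at 86.4, 84.8, 85.3 and 83.2 CPM in NC replicates 1 and 2, siRNA210 and siRNA596 replicate 1. The library labelled siRNA596 replicate 2 had 131.9 CPM. Like Trp53, these genes were level in 4 libraries and high in that last library, so the likeness rests mainly on it.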

How the data were processed

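HT22 cells were profiled by RNA-seq of 5 libraries (2 NC, 1 siRNA210, 2 siRNA596). The authors deposited whole-number counts per gene, made with HISAT2 2.1.0, SAMtools 1.7 and featureCounts 2.0.1 on GRCm38 per the labels. Strand use in counting is not given in the sources used here, so reads of overlapping antisense genes cannot be told apart. A table of the authors' own DESeq2 comparison, with fold changes and *P*-values, was not used.

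Genes were named from GENCODE M21 (99.5% of 55487 identifiers matched). Counts were scaled by TMM, filtered by filterByExpr and fitted with edgeR 4.0.16 (R 4.3.3) on 4 libraries, and again on all 5. *P*-values were adjusted over all genes tested. The fit of 4 libraries was also run on simulated counts with a fixed dispersion and libraries that differed in depth alone. It recovered 198 of 200 genes changed 2-fold, with 8 false calls, at an adjusted *P* of 0.05. That setting lacked the departure of NC replicate 2 and held larger changes than the listed genes showed. It therefore does not measure how the fits perform on these libraries. RPKM used the union of exons. The members, lists and tests were chosen with earlier results of these data known. Named genes were the 10 members and Gas5, per list the genes with an unadjusted *P* under 0.05 or the 3 with the smallest *P*, the 3 with the largest difference in the library labelled siRNA596 replicate 2, and the 5 nearest to Trp53. Alternatives were other scalings, filters, DESeq2, a length offset, a replicate block and leaving out each library. Of the genes that the naming rule selects, 1 is not reported here.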

Additional observations from a re-analysis of the deposited data

Results flagged for a closer look

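Bax in the library labelled siRNA596 replicate 2 was 3.35-fold the mean of the NC libraries. It was singled out because that library is outside the comparison of 4 libraries and its value lies above both controls. Trp53, Phlda3, Bbc3 and Gdf15 also lay above both controls in it, and Mdm2, Ccng1 and Zmat3 lay below both. The share of all genes outside both controls there was not counted, so these places are not read as a result about the list. Of all genes averaging 5 CPM or more, 16% were more than 2-fold above the mean of the other 4 libraries there. With the trend on length removed, the log2 difference of Bax from that mean fell from 1.78 to 0.89. It was then 0.56 for Trp53, -0.04 for Phlda3, -0.20 for Bbc3 and -0.14 for Gdf15. The difference in Bax rests on 1 library, whose Gas5 level goes against its label.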

How the results depend on the processing

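The count of p53 genes with an adjusted *P* under 0.05 was 0 in all 14 fits. At an unadjusted *P* it was 0 to 3 when each library was left out in turn, with 3 (Gdf15, Sesn2 and Zmat3) without NC replicate 1. Of all genes, 1 passed adjustment with DESeq2, and 0 to 1 with each library left out. The 523 genes with an unadjusted *P* under 0.05 became 60 with all 5 libraries, 41 with siRNA596 alone against NC, 924 with no filter, 53 with a length offset on all 5, and 170 to 2776 with each library left out (2776 without NC replicate 1, 170 without siRNA210). The 5 other pathway genes became 0 with all 5 libraries, 0 with siRNA596 alone, 0 with the length offset, and 0 to 20 with each library left out (20 without NC replicate 1, 0 without siRNA210, 1 without NC replicate 2). With library size alone and no TMM, 1 p53 gene was still past 2-fold in the library labelled siRNA596 replicate 2. Its log2 differences from the other 4 then went from 0.63 to 0.36 for Trp53 and from 1.78 to 1.51 for Bax. They went from -0.42 to -0.69 for Mdm2 and from 1.30 to 1.03 for Gas5. With the length trend removed, 0 p53 genes instead of 1 were past 2-fold in that library. Removing the length trend for the other lists was an alternative added after seeing the data. Of 18 regulators, those past 2-fold went from 8 (2 higher, 6 lower) to 5 (3 higher, 2 lower). Of 38 other targets they went from 15 (7 higher, 8 lower) to 5 (0 higher, 5 lower). They went from 3 to 0 of 9 BCL2 family genes, all higher, and from 1 to 3 of 6 ATF4 genes, all lower.

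The sign of the log2 fold change turned as follows, and the cause was not tested. With all 5 libraries it became 0.23 for Trp53, -0.074 for Mdm2, 0.81 for Bax, 0.29 for Gas5, -0.065 for Atf3, -0.068 for Bcl2l11, 0.032 for Cop1 and -0.045 for Ddit4. With a length offset as well it was 0.19 for Trp53, -0.039 for Mdm2, 0.28 for Bax, -0.007 for Bbc3, 0.20 for Gas5, 0.072 for Aen, -0.17 for Atf3, -0.17 for Chac1, 0.73 for Cop1, -0.013 for Ddit3 and -0.16 for Ddit4. With siRNA596 alone against NC and no block it was 0.33 for Trp53, -0.11 for Mdm2, 1.10 for Bax, 0.56 for Gas5, 0.088 for Aen, -0.36 for Atf3, -0.16 for Bcl2l11, -0.32 for Bmf, -0.038 for Chac1, 0.21 for Cop1 and -0.39 for Ddit4. Leaving out each library moved it from -0.052 to 0.008 for Trp53, -0.045 to 0.17 for Mdm2, -0.11 to 0.060 for Ccng1, -0.22 to 0.093 for Sesn2, -0.14 to 0.97 for Gdf15, -0.23 to 1.14 for Atf3, -0.068 to 0.47 for Chac1 and -0.064 to 0.68 for Ddit3. In these ranges Trp53 turned without siRNA596 replicate 1, Mdm2 without that library and without NC replicate 2, and the other 6 without NC replicate 2.

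The replicate numbers of siRNA596 and NC were not shown to pair the samples, since the deviations of same-numbered libraries correlated at 0.0948 over 16142 genes and there are 2 pairs. With the replicate block, 428 genes passed an unadjusted *P*, and 0 p53 genes and 4 other pathway genes did. The log2 fold change under the block was 0.29 for Trp53, -0.12 for Mdm2, 0.81 for Bax, 0.39 for Gas5, 0.030 for Aen, -0.40 for Atf3, -0.28 for Bcl2l11, -0.50 for Bmf, -0.034 for Chac1, 0.18 for Cop1 and -0.58 for Ddit4.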
